A study of Homo sapiens with 9 samples.

Results

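Box C/D small nucleolar RNAs were followed in 9 total RNA libraries made from the established human osteosarcoma line U2-OS. The members are the genes whose symbol in GENCODE release 44 starts with SNORD, without pseudogenes and without SNORD3A, SNORD118 and SNORD13, which have promoters of their own. Of 60609 gene identifiers in the count tables, 314 carried a SNORD symbol. Of those, 3 were pseudogenes by symbol and 3 were the excluded genes, which left 308 members. They were described as a main set of 214 genes (9 SNORD113 and 30 SNORD114 genes among them), 50 SNORD115 genes, 33 SNORD116 genes, and 11 further copies of the U3 and U13 RNAs. SNORD138 is typed as a miRNA in that release and was kept, since the rule is by symbol.

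All libraries came from the same line. Clone A1 and clone A4 overexpress NCBP2, the protein that holds the cap in the nuclear cap-binding complex. Each clone gave 3 libraries (replicates A, B and C). Empty-vector control libraries came from 3 separate clones, 1 library per clone. The NCBP2 arm is therefore 2 clones, repeat libraries of a clone share its history, and its p-values measure the spread between these libraries. The promoter of the construct is not given in the sources used here.

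Box C/D RNAs are short RNAs that mostly lie in introns of host genes and are cut out of the debranched intron by exonucleases. Each carries a C box near its 5′ end and a D box near its 3′ end, on which the proteins SNU13, NOP56, NOP58 and the methyltransferase fibrillarin assemble. The bases just before the D box, or before an inner copy of it (D′), pair with ribosomal RNA, and the nucleotide paired to the fifth base from the box is methylated on its ribose. The nuclear cap-binding complex binds capped transcripts, and through PHAX it also takes part in the traffic of capped small RNAs; RNAs released from introns lose their link to a cap when they are trimmed.

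The sequences that the levels below turn on are printed from the GENCODE 44 transcripts on GRCh38, 5′ to 3′, with the C box (TGATGA, within the first 20 bases) and the D box (CTGA, within the last 20 bases) in capitals. SNORD12C, which with SNORD15B had the highest levels per length, is shown with the copies that share its host.
SNORD12C (ZFAS1 intron, chr20:49278940-49279028, plus strand): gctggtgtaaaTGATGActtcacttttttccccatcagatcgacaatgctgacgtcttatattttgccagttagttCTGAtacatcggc
SNORD12B (ZFAS1, chr20:49280319-49280409, plus strand): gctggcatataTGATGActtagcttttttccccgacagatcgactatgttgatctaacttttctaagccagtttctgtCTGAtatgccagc
SNORD12 (ZFAS1, chr20:49280683-49280772, plus strand): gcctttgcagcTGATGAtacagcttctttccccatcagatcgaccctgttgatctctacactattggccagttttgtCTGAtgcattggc

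SNORD62A and SNORD62B are identical in sequence and differ in place and level. SNORD111 and SNORD92 are shown because they, with SNORD62A, are the members with an unadjusted p under 0.05 below, SNORD14A because its groups did not overlap in one comparison, and SNORD17 because it is the longest of the abundant members.
SNORD62A (PRRC2B intron, chr9:131485665-131485750, plus strand): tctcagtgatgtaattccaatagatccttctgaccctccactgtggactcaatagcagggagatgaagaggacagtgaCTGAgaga
SNORD62B (PRRC2B intron, chr9:131490486-131490571, plus strand): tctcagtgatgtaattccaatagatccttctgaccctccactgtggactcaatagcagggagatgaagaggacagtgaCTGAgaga
SNORD111 (SF3B3 intron, chr16:70538005-70538098, plus strand): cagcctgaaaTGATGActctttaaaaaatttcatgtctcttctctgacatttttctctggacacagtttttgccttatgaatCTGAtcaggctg
SNORD111B (SF3B3 intron, chr16:70529509-70529588, plus strand): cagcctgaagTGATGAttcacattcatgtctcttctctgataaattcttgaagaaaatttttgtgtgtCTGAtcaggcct
SNORD92 (WDR43 intron, chr2:28913664-28913748, plus strand): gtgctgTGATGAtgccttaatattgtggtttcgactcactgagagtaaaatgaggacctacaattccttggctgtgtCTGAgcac
SNORD14A (RPS13 intron, chr11:17074654-17074744, minus strand): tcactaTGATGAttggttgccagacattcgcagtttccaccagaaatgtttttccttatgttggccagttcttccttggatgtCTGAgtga
SNORD17 (SNX5 intron, chr20:17962710-17962946, minus strand): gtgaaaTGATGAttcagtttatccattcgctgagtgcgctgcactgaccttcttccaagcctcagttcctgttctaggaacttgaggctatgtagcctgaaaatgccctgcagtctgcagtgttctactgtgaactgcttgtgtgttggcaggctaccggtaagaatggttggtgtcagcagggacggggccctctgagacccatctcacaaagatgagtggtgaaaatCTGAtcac

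Exact copies of both boxes in those windows were found in 196 of the 308 members, against 0 of 214 transcripts of the box H/ACA class (SNORA genes), which guide pseudouridylation and have other boxes. A D box stood in 278 members and a C box in 205. SNORD62A, SNORD62B and SNORD93 are among those without an exact TGATGA, so no C box is marked in the printed SNORD62 sequences. The search was for exact letters on the RNA strand, and no match says only that these letters were not in the window.

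A run of at least 10 bases that ended 0 to 3 bases before a CTGA, covered the fifth base before it and was the exact complement of 18S or 28S rRNA was found in 90 of the 214 main members (42.1%), 41 in 18S and 49 in 28S. Among SNORA transcripts 7 of 214 had one (3.27%), and 0 of the 39 SNORD113 and SNORD114, 50 SNORD115 and 33 SNORD116 genes did. In SNORD14A the run was CTTCCTTGGATGT, and the fifth base before its D box faced C462 of 18S rRNA. In SNORD100 the run was GGCTCCCTCT and faced G436 of 18S, and in SNORD93 it was TTAAAGGATTTA and faced A576 of 18S. SNORD46 carried GTCATAGTTAC, which faced A3745 of 28S. SNORD111 and SNORD111B shared TCATGTCTCTTC, which faced G3929 of 28S, so these copies hold the same run although their sequences are 71.3% identical. Positions count from base 1 of the RNA18SN2 and RNA28SN2 copies on chromosome 21 of GRCh38, and a match is a description, with no measurement of methylation in these data.

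Each library held between 29234022 (clone A1 replicate A) and 50554080 (vector replicate B) counts on genes. Reads counted to no gene, those with several alignments or fitting several genes among them, were 44.5% to 63.6% of reads. Clone A1 replicate A had both the fewest gene counts and the largest share of such reads. The targeted gene NCBP2 averaged 95.7 ± 4.46 CPM (gene counts scaled to library depth; SD, n = 3) in vector, 317 CPM in clone A1 and 762 CPM in clone A4. Of the lineage markers, RUNX2, COL1A1, SPARC and VIM were counted at a mean of 220.5 CPM or more, SP7 had 1 count in all, ALPL and COL1A2 were low, and telomerase (TERT), which this line lacks, had 0 counts. Of 9 markers of other cell types, CD3E and HBB had 0 counts, KRT20 and PECAM1 had 1 and 10, and SNAP25 was highest at a mean of 11.9 CPM; 0 of these markers passed the test in any comparison.

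Of the 308 members, 211 had 0 counts in all 9 libraries, 97 had at least 1 count and 56 had enough counts to be tested. A count of 0 allows up to 0.0585 CPM in the deepest library and 0.106 CPM in the shallowest, taking 3 counts as the limit (counting error only). The main set held 25633 counts over the 9 libraries, so that these RNAs were about 56.1 to 80.6 CPM of each library.

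Whether a member had counts went with its place in the annotation. In the main set, 83 members lie wholly inside an exon that GENCODE gives to another gene on the same strand, and 81 of these (97.6%) had 0 counts in every library. Of the 109 members clear of such exons, 46 (42.2%) had 0 counts, and of the 22 that overlap one in part 11 did. The exons come mostly from noncoding or intron-retaining transcripts of the host: over all members, 73 lie in exons of lncRNA transcripts and 58 in retained introns, where a member may lie in both. Reads that fit more than 1 gene are set aside in such tables and do not reach any gene, and they were 1.88% to 3.75% of the reads of a library. The annotation release used for the counting is not given in the sources used here, so the overlaps are those of GENCODE 44.

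**Figure D1:**
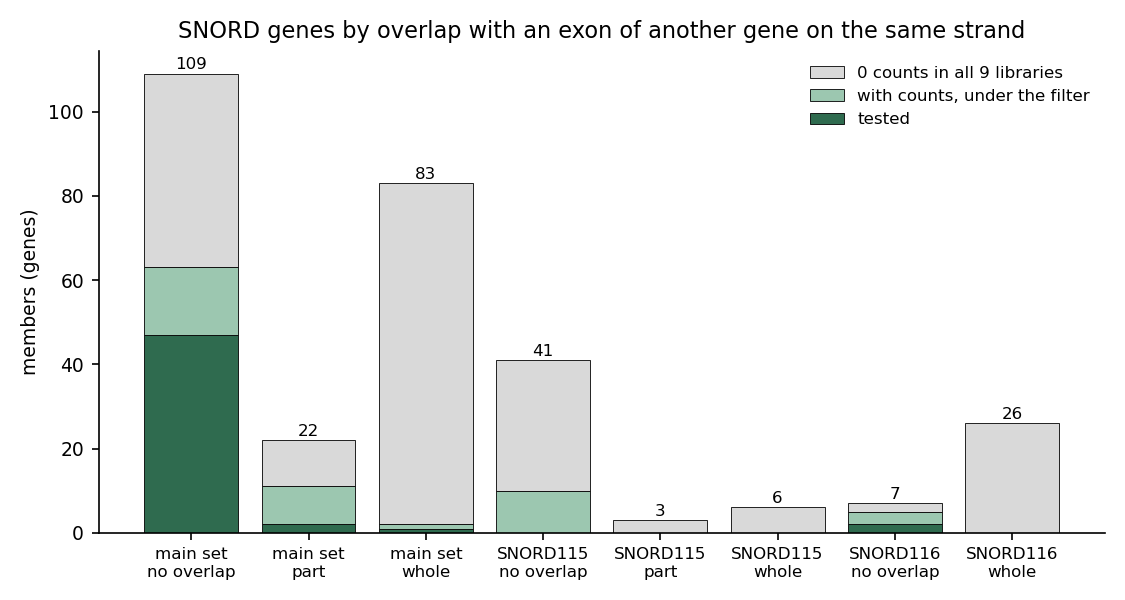
Number of SNORD genes (vertical axis) by overlap with a same-strand exon of another gene, for the main set, the SNORD115 genes and the SNORD116 genes. Grey is 0 counts in all 9 libraries, light green is with counts but too few to test and dark green is tested; of the 83 main members wholly inside such an exon, 81 are grey.

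The host levels of these classes had overlapping ranges. Whether host level or exon overlap accounts for the 0 counts was not tested. For hosts other than MEG8, the 74 wholly overlapped members had 72 at 0 counts and hosts with a median level of 170 CPM, while the 64 clear members had 6 at 0 counts and hosts with a median level of 97.5 CPM. SNHG1 is the lncRNA host with the most members outside the large imprinted clusters. Counts on the SNHG1 gene averaged 89.1 ± 14.7 CPM (SD, n = 9). Its 7 members SNORD25, SNORD26, SNORD27, SNORD28, SNORD30 and both SNORD22 genes, all wholly inside SNHG1 exons, had 0 counts. The 2 exceptions among the 83 were SNORD20, in an exon of the nucleolin gene NCL, with 445 counts, and SNORD63 in HSPA9 with 74 counts; both were chosen after their values were seen. What their counts come from was not tested.

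Within RPS3 and ZFAS1, level and overlap moved together as well. NCL went the other way: SNORD20, wholly inside an exon, had 445 counts and SNORD82, clear of exons, had 44. RPS3, which encodes a small-subunit ribosomal protein, holds SNORD15B, clear of exons, with 4561 counts and SNORD15A, with 135 of its 148 bases inside an exon, with 27 counts. ZFAS1, a lncRNA, holds SNORD12C, clear, with 2371 counts, SNORD12B, with 88 of 91 bases inside an exon, with 66, and SNORD12, wholly inside, with 0. Levels of SNORD12C and SNORD12, or of SNORD15B and SNORD15A, can therefore not be compared from these counts.

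Clear members with a host other than MEG8 were mostly seen, and those with no host were not. The 46 clear main members at 0 counts consisted of 23 in MEG8, 17 with no host on their strand (of 21 such members) and 6 others (of 64). MEG8, the imprinted lncRNA that carries the SNORD113 and SNORD114 genes, had 5 counts in all 9 libraries, a mean of 0.0127 CPM. All 9 SNORD113 genes had 0 counts, and 29 of 30 SNORD114 genes did. The exception, SNORD114-20, had 7 counts, 2 in clone A1 replicate C, 1 in clone A4 replicate A and 4 in vector replicate C.

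The counts were concentrated in few members. SNORD15B alone held 17.8% of the main set's counts, the first 3 members held 34.8% and the first 10 held 59.2%. Hosts that encode ribosomal proteins, 17 genes with 41 members, supplied 38.8% of the main set's counts, although 29 of those members were at 0. Protein-coding hosts had 117 main members with 21549 counts, and lncRNA hosts had 73 with 4013 counts.

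Per kilobase of RNA, SNORD15B averaged 80.3 ± 36.7 CPM per kilobase over the 9 libraries (SD) and SNORD12C 71.6 ± 23.3. Their spread over libraries is wider than the gap, so the order of these leading members is not settled. SNORD46 followed with 41.9 ± 9.91, SNORD14A in RPS13 with 31.4 ± 8.79, SNORD100 in RPS12 with 24.6 ± 11.7 and SNORD6 in TAF1D with 24.2 ± 5.34 CPM per kilobase. SNORD93 in the lncRNA SNHG26 stood at 23.3 ± 6.63, SNORD17 at 21.7 ± 8.62, SNORD101, also in RPS12, at 21.0 ± 3.56 and SNORD67 in CKAP5 at 20.4 ± 5.87. From SNORD14A to SNORD67 every neighbour in this order differed by less than 1 SD. Below SNORD67 the next member, SNORD127, averaged 16.3 ± 11.7 CPM per kilobase.

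**Figure D2:**
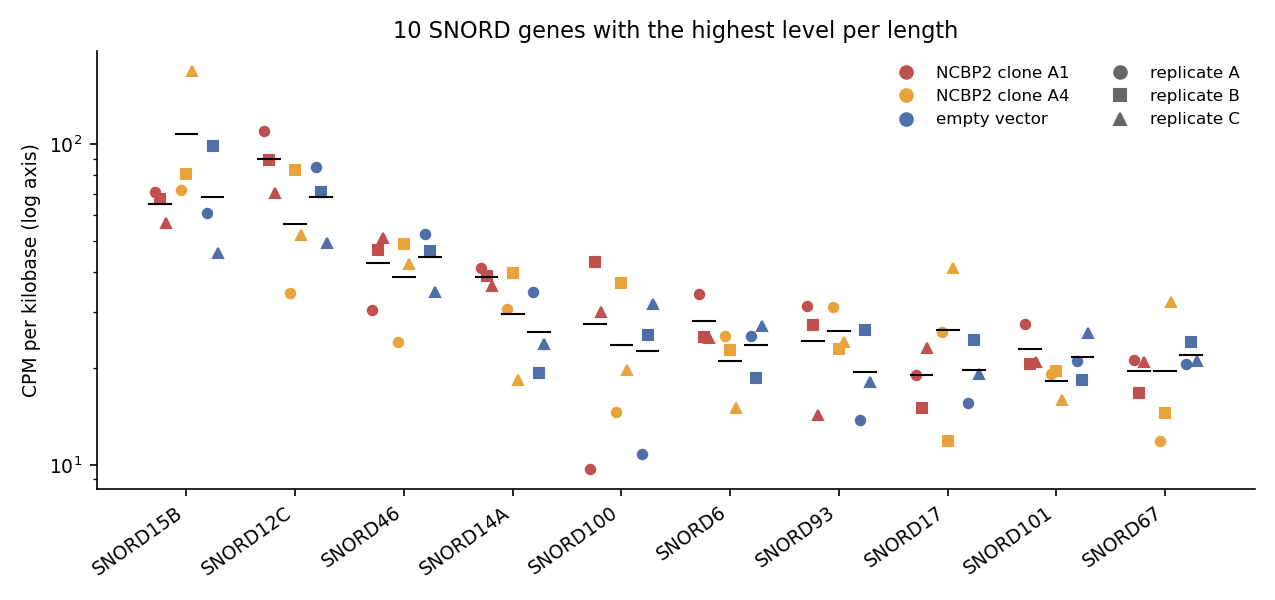
Level per kilobase of RNA (CPM per kilobase, logarithmic vertical axis) of the 10 members with the highest mean, in each of the 9 libraries, coloured by group, with black bars for group means. The groups overlap for most members, and clone A4 replicate C stands above the rest for SNORD15B.

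Length, rRNA complementarity and level went together little. Across the 58 main members clear of exons with at least 10 counts, length (64 to 237 bases) and level per kilobase had a Spearman correlation of 0.10, given as a description over genes that share libraries. Tested main members with a rRNA run had a median of 10.5 CPM per kilobase (30 members) and those without one 7.11 (20 members), with ranges of 1.33 to 80.3 and 1.71 to 71.6 that overlap almost fully. Members and hosts were also loosely related: across 48 members in 38 hosts, the host's mean CPM and the member's level per kilobase had a Spearman correlation of 0.27. Of main members in an intron of a protein-coding host's canonical transcript, 43.8% (49 of 112) ended 50 to 120 bases before the next exon, with a median distance of 169 bases.

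Members of 1 host differed in level even where none overlapped an exon. In the 9 hosts with at least 2 clear members and counts for each, the highest member was a median of 2.53 times the lowest per kilobase, with a range of 1.17 (SNORD100 over SNORD101) to 10.2 (SNORD91B over SNORD91A in TSR1). In TSR1, PRRC2B and GNL3 the order was the same in all 9 libraries. The PRRC2B pair is identical in sequence: SNORD62A and SNORD62B match over all 86 bases, and with their flanks over a run of 92 bases, and they lie 4735 bases apart. SNORD62B had 407 counts and SNORD62A 52, and these can come only from reads that reach past the identical run, because reads with several alignments, 6.80% to 16.3% of all reads, are not counted to genes.

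Against vector, no member passed the test in either clone or in the arm as a whole. The 2 clones pooled were compared with vector, each clone with vector and clone A4 with clone A1, by edgeR's quasi-likelihood test with Benjamini-Hochberg adjustment over 21682 genes at 0.05. All 4 comparisons called 0 of 56 members, where 0.0184%, 0.0646%, 0.115% and 0.161% of all genes tested were called in turn. The smallest adjusted p among the members was 0.691, 0.509, 0.849 and 0.774. At an unadjusted p under 0.05 there were 2, 3, 1 and 0 members, or 3.57%, 5.36%, 1.79% and 0% of 56. Of all genes, 5.71%, 7.51%, 5.25% and 6.63% had such a p. DESeq2's Wald test called 0 members in each after adjustment, where it called 108, 274, 185 and 246 of the 21682 genes. It gave 3, 4, 2 and 0 members at an unadjusted p under 0.05, for which no share over all genes is given here. Because the libraries are bulk RNA, fewer cells with an RNA and less of it per cell cannot be told apart. The 3 comparisons that use vector share its libraries, and those with a clone share that clone's.

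As a class the members had overlapping sums in the 3 groups. The main set summed to 76.9, 67.8 and 65.6 CPM in clone A1 replicates A, B and C, to 56.1, 70.1 and 80.6 CPM in clone A4 and to 64.8, 66.4 and 57.9 CPM in vector. The groups overlap, and the log2 ratio of the means was 0.14 for the NCBP2 arm, 0.15 for clone A1 and 0.13 for clone A4 (0.0011 without clone A4 replicate C). Over the 56 tested members the median log2 fold change was 0.04 in the arm, 0.07 in clone A1 and -0.08 in clone A4, beside 0.02, -0.02 and 0.03 over all genes. Clone A4 against clone A1 had a median of -0.22 over the members and 0.04 over all genes, with 19 members higher (33.9%, where 53.2% of all genes were higher) and 37 lower, and no member of that comparison reached an unadjusted p under 0.05.

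These comparisons are wide. The members' median standard error in the arm was 0.62 on the log2 scale, against 0.34 over all genes, and the median half-width of a 95% interval was 1.34. Only 7 of 56 intervals lay inside a 2-fold change in both directions in the arm, 5 in clone A1 and 2 in clone A4. The median member had 31.5 counts per library, where the median tested gene had 232, and its within-group SD was 0.73 on the log2 scale against 0.47. For most members a change of 2-fold was therefore not detectable at this depth and spread.

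**Figure D3:**
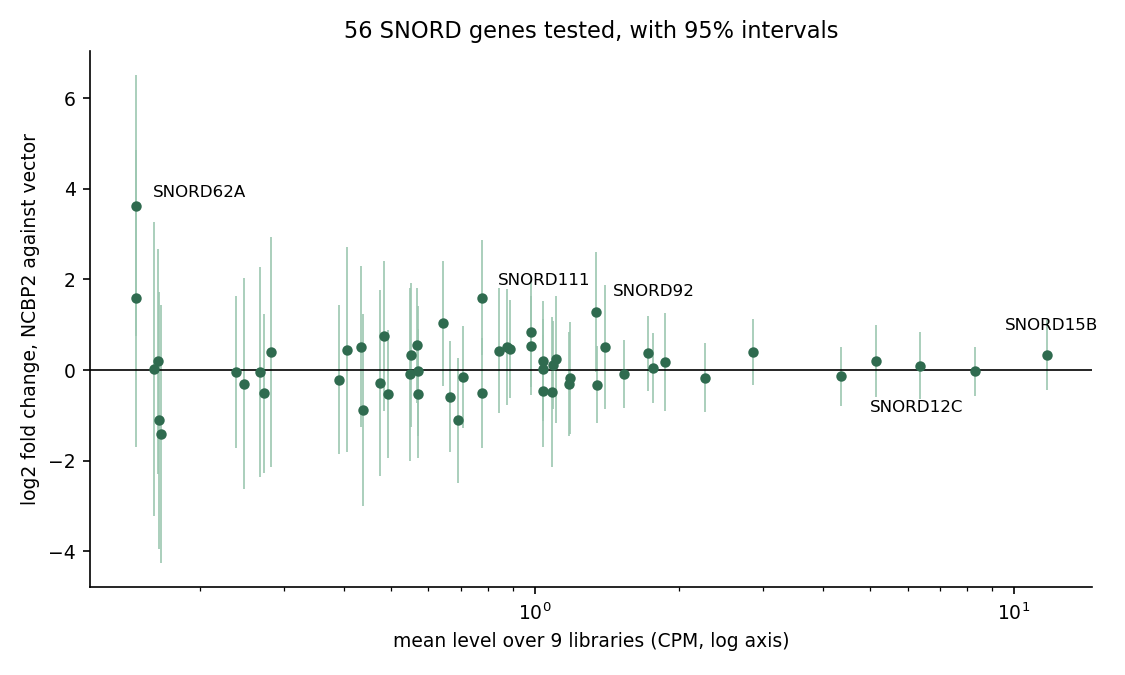
Log2 fold change of the NCBP2 arm against vector (vertical axis) with 95% intervals (bars) for the 56 tested members, by mean CPM over 9 libraries (logarithmic horizontal axis). Intervals narrow to the right, and that of SNORD111 (1.60, from 0.34 to 2.87) lies clear of 0 before adjustment. So does that of SNORD62A (3.63, from 0.74 to 6.51). Both members entered the test only through their NCBP2 libraries, where they are high.

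For the abundant members the arm could be placed more closely. SNORD15B had 10.3, 9.83 and 8.29 CPM in clone A1, 10.5, 11.8 and 24.8 in clone A4, against 8.90, 14.4 and 6.70 in vector. All values but that of clone A4 replicate C lay between 6.70 and 14.4 CPM, and the groups of the arm comparison overlap. Its log2 fold change in the arm was 0.33 (SE 0.36), with a 95% interval from -0.43 to 1.10, and 0.02 without clone A4 replicate C. SNORD12C had 9.78, 7.93 and 6.25 CPM in clone A1, 3.06, 7.41 and 4.63 in clone A4, against 7.56, 6.32 and 4.39 in vector. Its 3 groups overlap, with a log2 fold change of 0.09 (SE 0.34) in the arm that turned to -0.06 without clone A1 replicate A and to -0.11 without vector replicate C. SNORD46 differed by -0.13 (SE 0.30) in the arm, from -0.78 to 0.52, and the other 7 of the 10 leading members lay between -0.16 (SNORD67) and 0.40 (SNORD14A).

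SNORD111 was the 1 member whose 6 NCBP2 libraries all lay above the 3 vector libraries (1.79% of 56, where 3.74% of all genes did not overlap in this comparison, 1.47% higher and 2.26% lower). It had 1.90, 0.672 and 0.846 CPM in clone A1, 0.797, 0.750 and 1.03 in clone A4, against 0.195, 0.488 and 0.293 in vector. The highest vector library and the lowest NCBP2 library were 25 counts each before scaling to depth, so the gap between the groups is narrow. The arm differed from vector by 1.60 in log2 units (SE 0.59; edgeR adjusted p = 0.691), clone A1 by 1.79 (adjusted p = 0.509) and clone A4 by 1.39 (adjusted p = 0.970). Without clone A1 replicate A, its highest library, the value in clone A1 was 1.22 (adjusted p = 0.894). Vector replicate A, at 0.195 CPM, lay under the limit of the filter on low counts, so the 3 vector libraries alone would not have passed. SNORD111 was therefore tested only through its NCBP2 libraries, where it is high. Its fitted values and its place in the counts at an unadjusted p under 0.05 and without overlap therefore support nothing.

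The other copy in the same gene, SNORD111B, did not show this order. It had 0, 0.618 and 1.03 CPM in clone A1, 0.692, 0.182 and 0.134 in clone A4, against 0.779, 0.507 and 0.341 in vector. Its groups overlap throughout, and clone A1 replicate A, highest for SNORD111, had 0 counts for SNORD111B, which allows up to 0.106 CPM. The log2 fold change in the arm was -0.28 (SE 0.95), and the difference between the copies was not tested. The host SF3B3, a splicing factor subunit, averaged 300.2 CPM in clone A1, 297 in clone A4 and 332 in vector.

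SNORD92, in an intron of the ribosome biogenesis gene WDR43, had 4.54, 1.26 and 0.705 CPM in clone A1, 1.01, 1.66 and 0.850 in clone A4, against 0.714, 0.722 and 0.610 in vector. Clone A4 lay above vector in all 3 libraries, and clone A1 overlapped it. Clone A4 differed from vector by 0.78 in log2 units (SE 0.65; edgeR adjusted p = 0.9997), and by 0.42 without clone A4 replicate B. Clone A1 differed by 1.66 (SE 0.66; edgeR adjusted p = 0.570), and by 0.53 without clone A1 replicate A. That library also had the largest share of reads counted to no gene, 63.6%. The part of this in the result was not tested.

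SNORD62A had 9, 8 and 7 counts in clone A1, 1, 13 and 12 in clone A4, against 0, 1 and 1 in vector. Clone A1 lay above vector in every library, and clone A4 replicate A was level with vector. In sum, 50 counts in the NCBP2 libraries stood against 2 in vector, a depth-scaled ratio of 14.2 with an exact 95% interval of 3.72 to 120 for counting error only; the edgeR log2 fold change in the arm was 3.63 (SE 1.34; adjusted p = 0.697). With 0 or 1 count in each vector library, SNORD62A passed the filter on low counts only through the NCBP2 libraries where it is high. Its fitted values and its place in the counts at an unadjusted p under 0.05 and without overlap therefore support nothing. The same holds for its count ratio and interval, which pool libraries of a clone as independent and leave out the spread between libraries. SNORD62B, with the same sequence, had 265 counts in the NCBP2 libraries and 142 in vector. Its ratio was 1.06 with an interval of 0.859 to 1.30, again for counting error only. The difference between these copies was not tested. SNORD62A was 0% to 1.75% of the pair's counts in vector and 2.38% to 23.5% in the NCBP2 libraries, from reads that reach into the flanks.

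**Figure D4:**
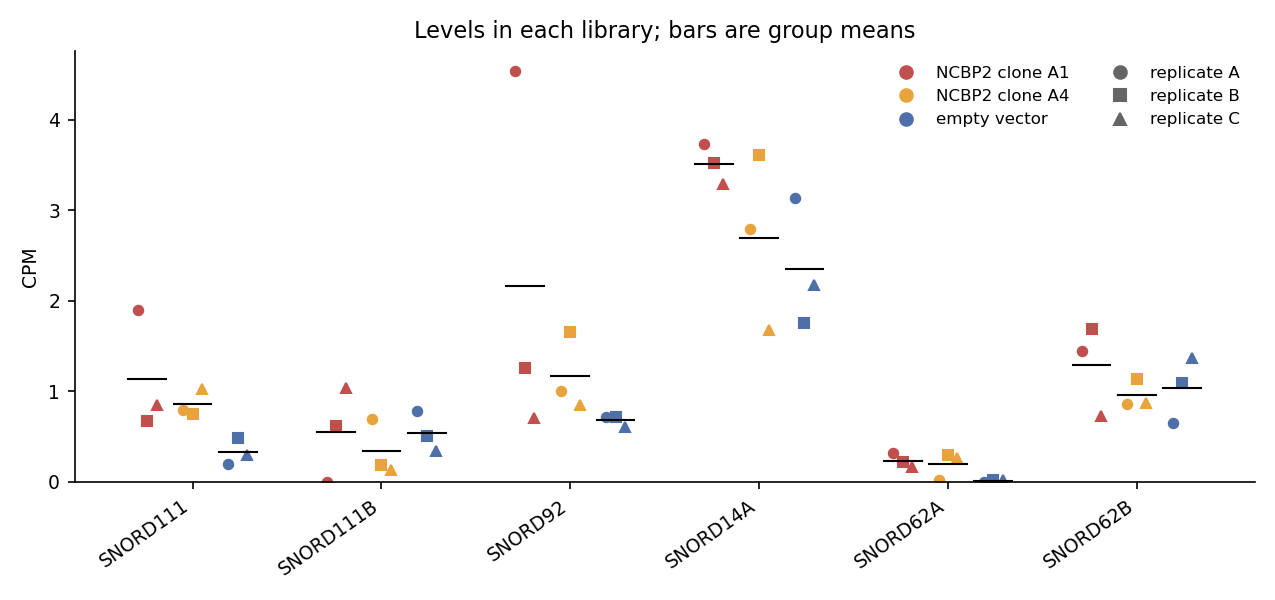
CPM (vertical axis) in each library of SNORD111 and SNORD111B (SF3B3), SNORD92 (WDR43), SNORD14A (RPS13) and SNORD62A and SNORD62B (PRRC2B), coloured by group, with bars for group means. The vector points of SNORD111 (0.195 to 0.488 CPM) lie below all NCBP2 points (0.672 to 1.90 CPM), while those of SNORD111B overlap.

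In clone A1, 5 of 56 members (8.93%) did not overlap with vector, where 14.2% of all genes did not (6.18% higher and 8.06% lower), and all 5 were higher: SNORD14A, SNORD11, SNORD111, SNORD90 and SNORD62A. SNORD90, with 0, 2 and 6 counts in vector, passed the filter only through NCBP2 libraries, as did SNORD111 and SNORD62A. SNORD14A, which had 3.73, 3.52 and 3.29 CPM in clone A1 and 3.14, 1.76 and 2.17 in vector, was the 1 of these with a mean above 1 CPM over the 9 libraries. Clone A4 held 2.79, 3.61 and 1.68 CPM of it and overlapped both. Its log2 fold change in clone A1 was 0.58 (SE 0.38; adjusted p = 0.770), while its host RPS13 averaged 258 CPM in clone A1 and 322 in vector. In clone A4, 4 of 56 members (7.14%) did not overlap with vector, where 12.1% of all genes did not (6.2% higher and 5.86% lower): SNORD92 and SNORD111 were higher, and SNORD59A and SNORD69 were lower.

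Between the clones, 3 of 56 members (5.36%) did not overlap, where 13.6% of all genes did not (7.92% higher and 5.72% lower in clone A4). SNORD15B was higher in clone A4, with a log2 difference of 0.72 (SE 0.36; adjusted p = 0.774) that was 0.21 without clone A4 replicate C. SNORD101 had 1.405, 1.432 and 1.164 CPM in clone A4 and 2.005, 1.505 and 1.527 in clone A1, a difference of -0.33 (SE 0.41; adjusted p = 0.880) that was -0.19 without clone A1 replicate A. SNORD59A was the third, at -1.10 (SE 0.75). Names of members under 1 CPM here, and of SNORD111B and SNORD62B, were chosen after their values were seen.

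One library stood apart for the longest members. The 7 main members of 140 bases and over summed to 35.6 CPM in clone A4 replicate C and to 11.8 to 21.1 CPM in the other 8 libraries. The members behind this were SNORD15B, at 24.8 CPM there, and SNORD17, at 9.73 CPM there against 2.82 to 6.14 in the others. SNORD17 had a log2 fold change of 0.41 in clone A4 against vector, and -0.08 without that library. Members of up to 79 bases summed to 16.9 CPM in the same library, within the 16.5 to 20.6 CPM of the others. SNORA genes summed to 541 CPM in clone A4 replicate C and to 196 to 500.2 CPM in the others, again highest in that library. Among members of 80 to 99 bases, clone A1 replicate A was highest with 35.2 CPM, where the others held 15.2 to 24.4 CPM.

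**Figure D5:**
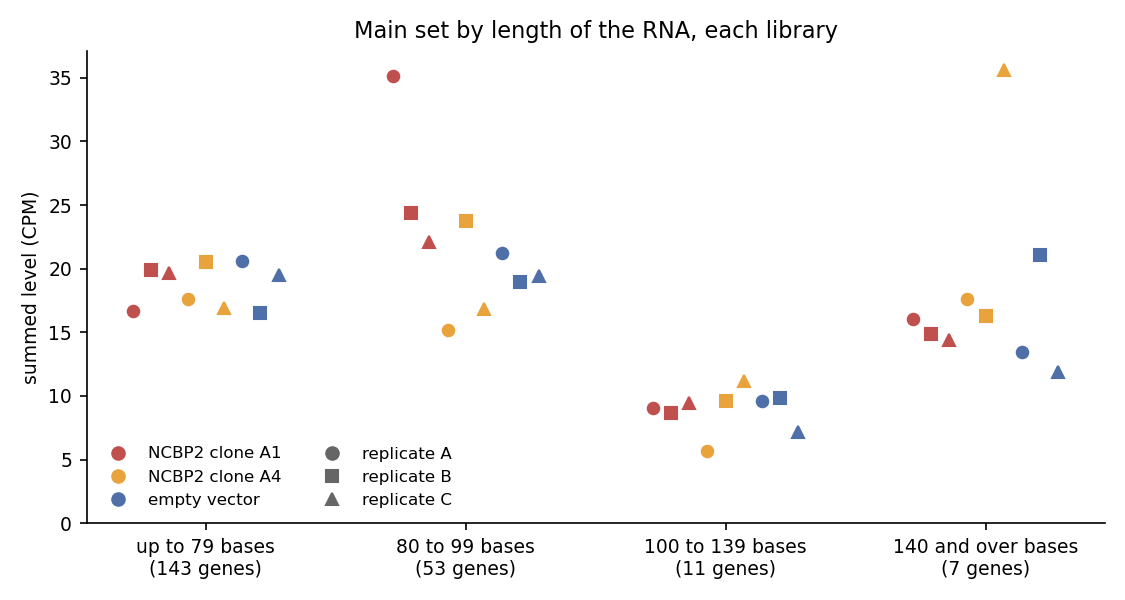
Summed level (CPM, vertical axis) of the main set by length of the annotated RNA in each library, coloured by group and with 1 symbol per replicate letter. Clone A4 replicate C (35.6 CPM) stands above the other 8 libraries in the class of 140 bases and over, and clone A1 replicate A (35.2 CPM) in the class of 80 to 99 bases.

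The clusters of chromosome 15 were set apart. Both lie in the lncRNA SNHG14, which averaged 331 CPM in clone A1, 279 in clone A4 and 254 in vector and did not pass the test in any comparison. Of 33 SNORD116 genes, 26 lie wholly inside SNHG14 or other exons and had 0 counts, and 5 of the 7 clear ones had counts, 366 in all. The copy with the most counts, 161, carries the symbol SNORD116 but lies in an intron of MVB12B at chr9:126426893-126426970, has neither exact box and is 63.0% identical to SNORD116-11.
SNORD116-11 (SNHG14, chr15:25075929-25076020, plus strand): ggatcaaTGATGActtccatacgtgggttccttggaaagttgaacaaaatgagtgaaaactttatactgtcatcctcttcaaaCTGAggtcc
SNORD116 on chromosome 9 (MVB12B, plus strand): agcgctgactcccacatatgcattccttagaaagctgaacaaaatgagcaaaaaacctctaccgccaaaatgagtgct

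On chromosome 15 itself SNORD116-11 led with 106 counts: 5, 17 and 10 in clone A1, 15, 8 and 3 in clone A4, against 18, 21 and 9 in vector. These counts overlap between all groups, and the log2 fold change in the arm was -0.51 (SE 0.81; edgeR adjusted p = 0.999). Of 50 SNORD115 genes, 41 are clear of exons, of which 31 had 0 counts, and the whole cluster had 25 counts in 9 libraries. The leading member SNORD115-25 had 7 counts, all in clone A4 replicate B. Of the other SNHG14 members, SNORD107, SNORD64, SNORD108 and SNORD109A lie wholly inside exons and SNORD109B does not, and each had 0 counts. Reads of the 9 SNORD115 and 6 SNORD116 genes whose sequence is identical to that of another member are counted only where they reach past it.

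Of the RNAs with their own promoters, SNORD3A and SNORD13 were tested and gave no call either. SNORD3A (U3) averaged 6.76 CPM in clone A1, 4.80 in clone A4 and 6.01 in vector, and SNORD13 (U13) 2.25, 3.46 and 1.77 CPM. The log2 fold change of SNORD13 was 0.96 in clone A4 (adjusted p = 0.869). SNORD118 (U8) had 0 counts in all libraries and was not tested. Whether it overlaps an exon of another gene is not given here, so its 0 counts do not show that it is absent. Of the 11 further U3 and U13 copies, SNORD3C led with 3177 counts, and the counts of these repeated genes are uncertain, since reads with several alignments are not counted to genes. As a group they summed to 9.60, 13.1 and 11.6 CPM in clone A1, 7.19, 11.4 and 13.5 in clone A4, against 12.7, 12.3 and 8.95 in vector, with overlap between all groups.

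Proteins of the box C/D particle were listed as core, assembly factors, and trafficking and maturation factors, 28 genes that were all tested. NCBP2 itself rose by 1.73 on the log2 scale in clone A1 (edgeR adjusted p = 0.0327) and by 2.99 in clone A4 (edgeR adjusted p = 0.000417). It did not pass in the arm as a whole, at 2.50 (adjusted p = 0.123), or between the clones, at 1.27 (adjusted p = 0.0764). None of the others passed the test in any of the 4 comparisons. Among the core proteins, NOP58, whose gene hosts SNORD11 and SNORD11B among others, had the largest difference, 0.57 in the arm (adjusted p = 0.661), FBL, the methyltransferase, had -0.02 and NOP56 0.12. SNU13, which binds the RNA first, had -0.28. PHAX, the adaptor between the cap-binding complex and the export receptor XPO1, had 0.29, and DBR1, which opens intron lariats, had -0.01. The median of the whole list was 0.11 in the arm, beside 0.02 over all genes.

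Of the 90 host genes, 89 were found in the tables by identifier, 83 were tested and 0 passed in any of the 4 comparisons. Across 48 tested members in 38 hosts, the log2 fold changes of host and member had a Spearman correlation of 0.22 in the arm, 0.30 in clone A1 and 0.07 in clone A4, as a description over genes that share libraries. The members' median absolute change in the arm was 0.40 and that of their hosts 0.17. Absolute changes grow with the error of an estimate, and the members' median standard error was 0.62 against 0.34 over all genes. These medians therefore do not show that members changed more than their hosts. A read from the unspliced intron of a host that lies over a member is counted to the member too, so mature RNA and intron cannot be told apart in these counts. Of 213 SNORA genes, 119 had 0 counts, 65 were tested and 0 were called in the 4 comparisons, with a median log2 fold change of 0.13 in the arm.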

How the data were processed

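The authors deposited 1 table per library of unnormalized read counts for each gene. The submitters' processing notes name STAR 2.7.1a and GRCh38; the annotation used is not given in the sources used here. The labels' protocols name ribosomal RNA depletion, while the molecule field names polyadenylated RNA. The sense-strand count column was used without the 4 leading lines that belong to no gene. Symbols, coordinates, hosts, exon overlaps and sequences came from GENCODE 44, with 60295 of 60609 identifiers matched; 18S and 28S copies were placed by RefSeq. Genes were filtered with filterByExpr and tested with edgeR 4.0.16 (quasi-likelihood, TMM scaling, Benjamini-Hochberg), in 2 groups for the arm and 3 for the clones; the script was tested on simulated data. Levels are CPM with TMM-scaled library sizes. SNORD genes were named if among the 10 highest per length, if called, if above 1 CPM without overlap between groups, or if in a leading host or cluster. The members and lists were chosen with earlier results of these data known. Alternatives were DESeq2 1.42.0, RLE scaling, TMM from SNORD genes, no filter, both strands, summed clones, only the libraries compared, a replicate block and leaving out libraries.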

Additional observations from a re-analysis of the deposited data

Results flagged for a closer look

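Among the 6 NCBP2 libraries, 21 sums or members were examined for a library whose gap to the next takes more of the whole range than Dixon's 95% limit allows, which chance passes in about 1 in 20 groups. The sum of main members of 140 bases and over was 35.6 CPM in clone A4 replicate C. SNORD15B was 24.8 CPM in the same library. SNORD92 was 4.54 CPM and SNORD111 1.90 CPM in clone A1 replicate A, the library with the fewest gene counts.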

How the results depend on the processing

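In each of the 4 comparisons, 0 members were called under all 16 alternatives run. The smallest adjusted p over these alternatives was 0.187 in the arm, 0.186 in clone A1, 0.590 in clone A4 and 0.473 between the clones. Over all genes, DESeq2 called 108, 274, 185 and 246 of 21682 in turn. The edgeR fit with no filter called 20, 312, 163 and 231 of 37715. The log2 ratio of the class sum in the arm (0.14) ranged from 0.0831 to 0.195, that of clone A1 from 0.0806 to 0.198 and that of clone A4 from 0.0011 (without clone A4 replicate C) to 0.257. Without regard to strand, 35 in place of 46 clear main members had 0 counts, and the 81 wholly overlapped ones stayed at 0; SNORD4A fell from 415 counts to 0 there, beside an antisense gene. Scaling on SNORD genes alone moved the median of all genes in clone A1 by -0.10, to -0.12, and turned SNORD12C to -0.0176 and SNORD6 to -0.0105 in the arm. Leaving out 1 library turned the sign of SNORD12C (-0.11 to 0.26), SNORD100 (-0.16 to 0.48), SNORD6 (-0.0950 to 0.16), SNORD17 (-0.0561 to 0.38) and SNORD101 (-0.18 to 0.0443) in the arm and of SNORD17 in clone A4 (-0.0800 to 0.74); the cause was not tested. Of 346 values of named members, 335 kept their direction. Deviations of libraries with the same replicate letter correlated between -0.14 and 0.21 (median 0.16, 9 pairs). Those with different letters correlated between -0.32 and 0.26 (median -0.07, 18 pairs), and 4 of 9 libraries matched their own letter best. Whether the letters mark a shared batch was not tested. The replicate block called 0 members in each comparison, with SNORD111 at 1.56 in the arm. Its members' median between the clones was -0.11 in place of -0.22. Over all 21682 genes the block called 13, 38, 53 and 51 in the 4 comparisons, against 4, 14, 25 and 35 without it. As to depth, 42 of 56 tested members had a median under 50 counts per library.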
